A study of Rattus norvegicus with 45 samples.

Results

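The livers of 5 rats collected 9 h after an oral dose of 1000 mg/kg acetaminophen (APAP) were set against the livers of 5 undosed rats collected at 0 h. The members were the arrays labelled APAP at 9 h (5 arrays) and Baseline at 0 h (5 arrays), 10 of the 45 arrays in the rat table. All were male Sprague-Dawley rats, and each array held total RNA from the liver of 1 animal. The baseline animals were killed after the overnight fast and received neither drug nor vehicle. The APAP animals were fasted in the same way, dosed by gavage in 1% hydroxyethylcellulose and killed 9 h later, also by exsanguination under isoflurane. The methods describe a 16 h fast before dosing and food being given back afterwards, and they give an age of 5 weeks for the rats of a dose-ranging study but none for this time course. The comparison therefore holds the drug, the gavage and vehicle, the hour of day and the return of food together, and these cannot be told apart within it. Vehicle rats killed at 9 h (5 arrays) shared the gavage and the hour with the APAP animals, so their values are given beside them. Whether the 2 dosed groups ate alike before 9 h is not stated in the sources used here, so drug and food intake cannot be told apart between them either. The 3 comparisons share samples and are not independent of each other.

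APAP is cleared in the liver mostly as glucuronide and sulfate conjugates. A smaller share is oxidised by cytochrome P450 enzymes, Cyp2e1 among them, to the reactive quinone imine NAPQI, which is trapped by glutathione and, when glutathione runs low, binds cysteine residues of hepatocyte proteins. Cells meet such electrophiles with several known programs. Keap1 releases Nrf2 (encoded by Nfe2l2), which drives glutathione and thioredoxin genes. Misfolded cytosolic protein releases Hsf1, which drives chaperones. Kinases that phosphorylate eIF2α favour translation of Atf4, which drives amino acid transport and synthesis. Fasting and feeding act on the same tissue by other routes, through insulin and Srebp-1c (encoded by Srebf1) for fat synthesis and through Ppara for fatty acid burning. A fasted baseline thus sits at the low end of the first route and the high end of the second.

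All values are the deposited log2 RMA expression values of 13877 probe sets, 1 for each gene, and differences are APAP minus baseline on that log2 scale (1 unit is 2-fold), given ± the standard error of limma's moderated fit (n = 5 per group). A gene was called when its Benjamini-Hochberg adjusted p was below 0.05 and its change reached 1.5-fold. By this rule 1095 genes (7.89%) were higher and 992 (7.15%) lower in APAP than in baseline livers, 15.0% in all, and the 2 groups did not overlap for 4579 genes (33.0%). The vehicle animals had 483 genes (3.48%) higher and 405 (2.92%) lower than baseline, and APAP against vehicle at 9 h gave 1200 (8.65%) higher and 1176 (8.47%) lower. The first principal component, 73.1% of the variance of the 10 arrays, separated the groups. Albumin (Alb), the main secreted protein of hepatocytes, stood between 14.98 and 15.04 on all 10 arrays, and of 18 genes of secreted hepatocyte proteins 1 was called lower, so the liver label was borne out by its markers. Arrays within a group correlated at 0.987 to 0.995 for APAP and 0.993 to 0.996 for baseline. The mean of 7 ribosomal protein genes was higher in the APAP livers (11.10 to 11.24) than at baseline (10.71 to 10.91), as it was in the vehicle livers (11.04 to 11.19). Centring the arrays on those genes moved the median of all genes from -0.03 to -0.37 and the calls to 527 higher and 2800 lower, so every direction below is relative to the whole array.

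Several cytosolic heat shock genes were among the genes with the largest increases. Of 28 chaperones and their regulators, 15 were higher and 1 lower, with a median difference of 0.69 against -0.03 for all genes. Hspa1b (probe set 294254_at), the inducible Hsp70, read 8.19, 7.96, 8.30, 8.23 and 8.26 in the baseline livers and 13.96, 13.82, 13.98, 13.84 and 13.93 in the APAP livers. The APAP animals lay close together and far above every baseline animal, a difference of 5.72 ± 0.07 or 52.6-fold (adjusted p = 1.84e-13). In vehicle livers Hspa1b was lower than at baseline (-1.20 ± 0.09, adjusted p = 1.82e-06). Zfand2a, a zinc finger protein that associates with the proteasome under arsenite stress, went from 7.42 to 8.09 at baseline to 13.49 to 13.70 after APAP (5.78 ± 0.10). Bag3, an Hsp70 co-chaperone that directs clients to autophagy, read 9.74, 9.49, 9.33, 9.17 and 9.09 at baseline and 13.37, 12.71, 13.18, 12.90 and 12.87 after APAP, with no overlap and a difference of 3.64 ± 0.14. Dnajb1, the Hsp40 partner of Hsp70, rose by 3.52 ± 0.10, and the small heat shock proteins Hspb1 and Hspb8 rose by 3.07 ± 0.28 and 2.90 ± 0.10. Hsph1, an Hsp70 nucleotide exchange factor, rose by 1.83 ± 0.13 and, like Hspa1b, was lower in vehicle livers (-1.12 ± 0.11). The abundant Hsp90 gene Hsp90ab1 (12.36 to 12.71 at baseline) rose by 0.75 ± 0.08, and Hsf1 itself by 0.91 ± 0.06. The 1 member that fell, Trap1 (-0.61, and -0.56 and below 1.5-fold without baseline animal 4), encodes the mitochondrial Hsp90. In the vehicle animals 1 of the 28 was called higher and 3 lower, and against vehicle 15 were higher and 1 lower.

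The promoters of several of these genes carry the inverted pair of pentamers that Hsf1 binds. Shown are the called members with the largest changes among those that carry it. Sequences are RefSeq's for GRCr8. The pair GAANNTTC (its own reverse complement, so both strands are covered) was searched in the 250 bases before each gene's annotated start. It occurred in 2420 of 33469 promoters (7.23%) and in 10 of the 24 chaperone genes that matched by Entrez number. Of those, 6 were among the 13 matched members that were called higher. Zfand2a held 0 copies, and Hspa1b was not among the matched genes. Capitals mark the letters of the pair in stretches of 80 bases, for Bag3 (chr1:192533292-192533371, plus strand), Dnajb1 (chr19:41431142-41431221, minus strand), Hspb1 (chr12:26432367-26432446, minus strand) and Hspb8 (chr12:45837228-45837307, plus strand).
Bag3: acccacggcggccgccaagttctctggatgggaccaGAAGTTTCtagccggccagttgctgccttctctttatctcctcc
Dnajb1: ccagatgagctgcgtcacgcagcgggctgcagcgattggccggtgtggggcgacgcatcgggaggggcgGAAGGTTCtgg
Hspb1: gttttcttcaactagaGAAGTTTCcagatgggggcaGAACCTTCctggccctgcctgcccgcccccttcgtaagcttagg
Hspb8: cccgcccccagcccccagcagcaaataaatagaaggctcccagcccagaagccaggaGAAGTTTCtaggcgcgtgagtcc
Hspb1 carries 2 copies and the others 1 each. A match describes the letters only and says nothing of whether Hsf1 was bound.

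Proteasome subunits moved less and in part with vehicle. Of 29 genes, 15 were higher and 0 lower (median 0.60), led by the core subunit Psmb3 (1.06 ± 0.09) and the lid deubiquitinase Psmd14 (0.99 ± 0.11). The vehicle livers had 4 of the 29 higher, Psmb3 (0.71 ± 0.07) and Psmd14 (0.67 ± 0.10) included, and against vehicle 3 were higher after APAP. With the arrays centred on ribosomal protein genes 2 of the 29 stayed above the threshold. The ubiquitin and Keap1 adaptor Sqstm1 (p62), a cargo receptor of autophagy, rose by 1.85 ± 0.10 with vehicle at 0.72 ± 0.10. Among 36 autophagy and lysosome genes 7 were higher and 2 lower with a median of 0.00, the phosphoinositide-binding autophagy protein Wipi2 (1.4 ± 0.10) being higher and the receptor Optn (-1.0 ± 0.09) lower.

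**Figure D1:**
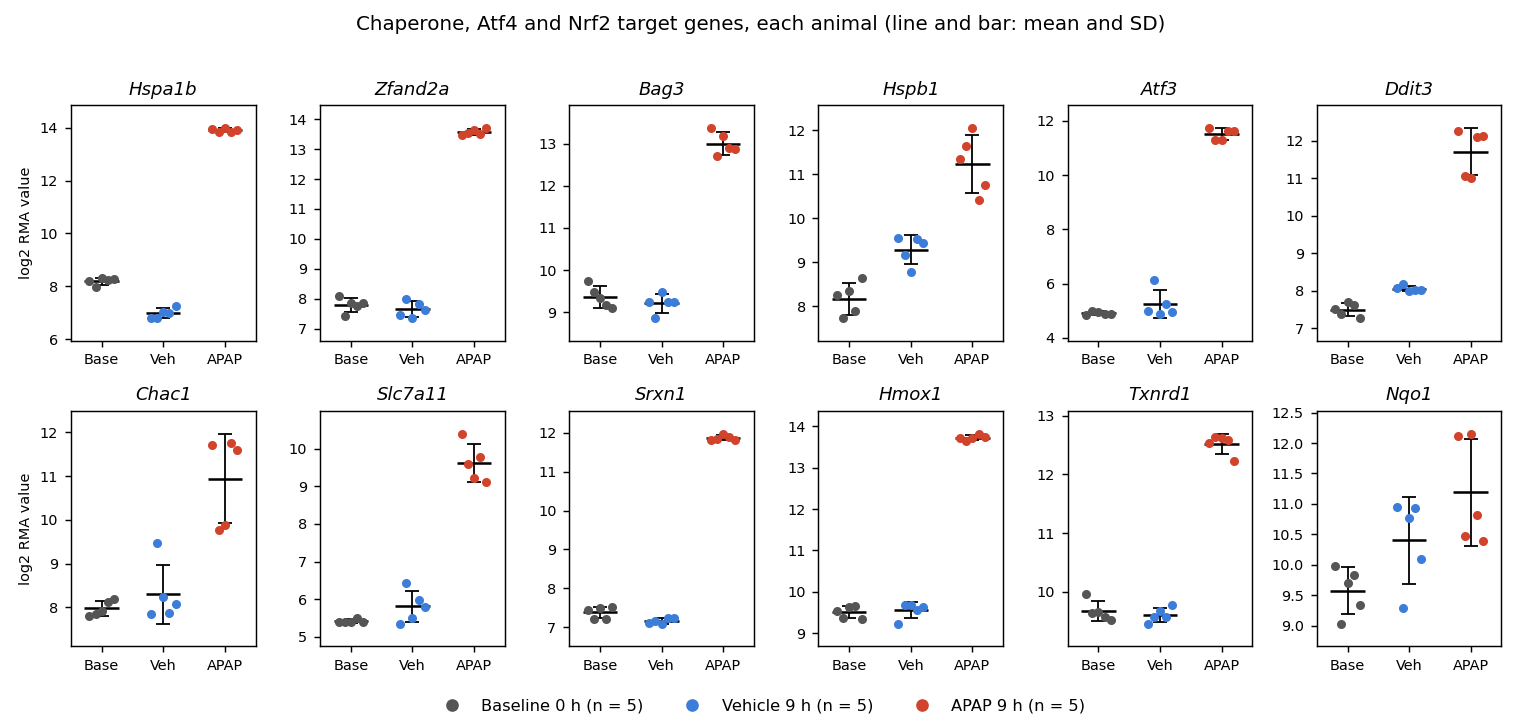
Log2 expression of 12 stress response genes in each animal of the baseline (0 h), vehicle (9 h) and APAP (9 h) groups (n = 5 each), points being animals, the horizontal line the group mean and the bar its SD. Every APAP animal lies above every baseline animal for all 12 genes, and for Atf3 the APAP livers read 11.28 to 11.73 against 4.83 to 5.00 at baseline.

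Of 31 targets of Atf4, 22 were higher and 3 lower, with a median of 1.69. Atf3, a transcription factor of the same family, is induced by many stresses. It had the largest increase in the deposited values among called genes with a proper symbol and groups that did not overlap. Atf3 read 4.83, 5.00, 4.94, 4.89 and 4.89 at baseline and 11.73, 11.28, 11.31, 11.62 and 11.64 after APAP. The difference was 6.61 ± 0.09 (adjusted p = 3.76e-13), and vehicle livers stood at 4.89 to 6.13. The baseline mean of Atf3 was low, 9.48% of genes having a lower one, and the deposited values carry no background call, so no fold is given for it or for other genes that read as low. Atf4 itself rose by 1.70 ± 0.11, with vehicle at 0.87 ± 0.10. Ddit3 (CHOP), which acts downstream of Atf4 in prolonged stress, read 7.51, 7.38, 7.69, 7.61 and 7.27 at baseline and 12.26, 11.05, 11, 12.11 and 12.12 after APAP (4.22 ± 0.24). Animals 2 and 3 of the APAP group were thus below the other 3, though well above baseline. Ppp1r15a (GADD34), which directs a phosphatase to eIF2α, rose by 4.24 ± 0.20, and the pseudokinase Trib3 by 2.66 ± 0.20. Slc7a11, the cystine importer that feeds glutathione synthesis, went from 5.39 to 5.50 at baseline to 9.12 to 10.39 (4.20 ± 0.19). Chac1, an enzyme that breaks glutathione down, read 7.79, 7.85, 7.92, 8.12 and 8.18 at baseline and 11.71, 9.76, 9.89, 11.76 and 11.60 after APAP, again with animals 2 and 3 the lowest of their group (2.97 ± 0.39). The leucine carrier Slc7a5 rose by 2.06 ± 0.12. The stress hormones Fgf21 (2.48 ± 0.49) and Gdf15 (2.45 ± 0.35) rose too, Gdf15 to 5.49 in APAP animal 3 and to 7.42 to 7.70 in the other 4. Fgf21 read 7.45, 10.35, 8.5, 7.85 and 8.26 in vehicle livers, so vehicle animal 2 lay above APAP animals 2 and 3 (9.92 and 9.86). Vehicle animal 2 also had the highest mean of the Atf4 targets in its group (9.08, the others at 8.20 to 8.70).

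Not every Atf4 target rose, and some rose as much without the drug. The serine synthesis genes Psat1 and Phgdh were 2.82 ± 0.14 and 2.71 ± 0.40 above baseline after APAP, but 2.90 ± 0.37 and 2.84 ± 0.51 above it in vehicle livers, and APAP against vehicle differed by -0.07 ± 0.36 and -0.14 ± 0.38. Asparagine synthetase (Asns) stood at 2.12 ± 0.16 for APAP and 1.45 ± 0.40 for vehicle, and the difference of 0.67 ± 0.38 was not past the threshold. Cth, the enzyme that makes cysteine from cystathionine, went the other way: it was lower after APAP (-1.14 ± 0.14) and higher after vehicle (0.76 ± 0.14), and the 2 dosed groups differed by -1.89 ± 0.07 (adjusted p = 1.69e-09). Of 17 cytosolic tRNA synthetases 11 were higher and 0 lower (median 0.73, and 7 higher with a median of 0.40 after ribosomal protein centring), Nars (1.87 ± 0.07) and Hars (1.69 ± 0.07) leading. Nars was also higher in vehicle livers (0.59 ± 0.09), whereas Hars read -0.01 ± 0.13 there.

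An Atf4 and C/EBP composite letter string, TGATGCAA, was searched on both strands of the same windows. It was present in 0.693% of all promoters and in 2 of 29 matched Atf4 targets, Chac1 (chr3:126795928-126796007, plus strand) and Fgf21 (chr1:105221476-105221555, minus strand), both of which were called higher. Both copies lie on the opposite strand. They are shown as the members of this list that carry it. APAP animals 2 and 3 were the lowest of their group for both genes, Fgf21 reading 11.97, 9.92, 9.86, 12.15 and 12.05 in animals 1 to 5. The same 2 animals were the lowest for Ddit3 and Sesn2, whose windows held 0 copies. A link between the string and the animals was not tested.
Chac1: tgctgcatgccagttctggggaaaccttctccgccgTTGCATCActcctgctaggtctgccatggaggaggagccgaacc
Fgf21: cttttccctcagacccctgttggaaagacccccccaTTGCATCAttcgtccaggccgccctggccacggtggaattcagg

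Genes of the endoplasmic reticulum showed no such block. Of 25 chaperones and unfolded protein response genes, 5 were higher and 2 lower after APAP (median 0.21, and -0.12 with ribosomal protein centring), while vehicle livers had 13 higher and 2 lower. Dnajb9, an ER co-chaperone, rose by 2.12 ± 0.17 and the main ER chaperone Hspa5 (BiP) by 1.33 ± 0.07, with vehicle at 0.55 ± 0.14 and 0.65 ± 0.06. The sensor Ern1 (IRE1α) rose by 1.31 ± 0.16. Creld2, an ER stress gene, read 8.89 to 9.49 at baseline, 9.26 to 9.74 after APAP and 10.90 to 11.51 after vehicle, so the vehicle animals alone stood apart (APAP minus vehicle -1.78 ± 0.12). Xbp1, the transcription factor of the IRE1α branch, was lower in both dosed groups (-0.64 ± 0.10 and -0.77 ± 0.11).

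Nrf2 targets rose more uniformly between animals. Of 27 genes 20 were higher and 0 lower (median 1.15), where the vehicle livers had 9 higher and 0 lower. Srxn1, which repairs over-oxidised peroxiredoxins, read 7.44, 7.22, 7.5, 7.21 and 7.52 at baseline and 11.82, 11.84, 11.97, 11.88 and 11.82 after APAP (4.49 ± 0.07, 22.4-fold, adjusted p = 2.1e-12). Hmox1, heme oxygenase, went from 9.35 to 9.66 to 13.65 to 13.82 (4.22 ± 0.07). In both genes the spread within a group was small against the gap between groups. The aldo-keto reductase Akr1b8 rose by 4.36 ± 0.20 from a low level (5.12 to 5.85 at baseline), and thioredoxin reductase Txnrd1 by 2.85 ± 0.10. Gclm and Gclc, which together form glutamate-cysteine ligase, the first step towards glutathione, rose by 2.08 ± 0.18 and 1.76 ± 0.14, with vehicle at 0.52 ± 0.15 and 0.48 ± 0.12, short of the threshold. Glutathione transferase Gstp1 rose by 1.54 ± 0.09 with vehicle at -0.11 ± 0.09. Nqo1, the quinone reductase often used as the readout of Nrf2, was less even: baseline animals read 9.98, 9.03, 9.70, 9.83 and 9.33, APAP animals 12.12, 10.47, 12.15, 10.82 and 10.39, and vehicle animals 10.94, 9.28, 10.76, 10.93 and 10.09. It was 1.62 ± 0.36 above baseline, but the APAP and vehicle animals overlapped and their difference of 0.79 ± 0.42 was not past the threshold (adjusted p = 0.151). Nfe2l2 and its repressor Keap1 moved by 0.39 ± 0.12 and 0.40 ± 0.08 and were not called. The transporters Abcc2 and Abcc4, which export conjugates to bile and blood, rose by 1.46 ± 0.11 and 1.15 ± 0.28. Abcc2 was also higher after vehicle (1.14 ± 0.14), and the difference of 0.32 ± 0.14 between the dosed groups was not called.

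The antioxidant response element was searched as TGACNNNGC on both strands. It occurred in 10.1% of all promoters and in 4 of 23 matched Nrf2 targets, 3 of which were called higher. Those are shown as the members of this list that carry it: Gclm (chr2:213031927-213032006, plus strand), Gstp1 (chr1:210769723-210769802, minus strand) and the malic enzyme Me1 (chr8:96540368-96540447, minus strand).
Gclm: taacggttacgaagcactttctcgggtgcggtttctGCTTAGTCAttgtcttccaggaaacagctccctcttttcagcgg
Gstp1: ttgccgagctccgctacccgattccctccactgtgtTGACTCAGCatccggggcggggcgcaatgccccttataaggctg
Me1: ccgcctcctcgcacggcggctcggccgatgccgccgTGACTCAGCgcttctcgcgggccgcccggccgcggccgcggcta
In Gclm the match lies on the opposite strand. The matches in Gstp1 and Me1 also contain the letters of the AP-1 element, TGACTCA. The window ends 250 bases before the start, so elements further upstream were not searched.

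Immediate early genes, normally brief responses to growth factors or stress, were high 9 h after the dose. Of 33 genes of this class, 24 were higher and 1 lower (median 1.02), and in vehicle livers 0 were higher and 7 lower. The small Maf protein Maff, a partner of both Nrf2 and AP-1 factors, rose from 4.81 to 5.05 to 9.39 to 10.13 (4.76 ± 0.12). The zinc finger factor Klf6 rose by 3.96 ± 0.14 and the ERK phosphatase Dusp5 by 3.78 ± 0.11, the latter with vehicle at -0.98 ± 0.08. Jun, the core AP-1 subunit, read 7.65, 7.25, 8.07, 8.09 and 7.85 at baseline, 7.52, 8.88, 7.02, 7.07 and 7.41 in vehicle livers and 12, 9.85, 10.16, 11.87 and 12.07 after APAP. Its difference was 3.41 ± 0.42, and APAP animals 2 and 3 were again the lowest of the 5. Junb, Fosl1 and Mafk rose by 1.16 ± 0.20, 1.87 ± 0.12 and 2.20 ± 0.12. Ccn2 (CTGF), a matricellular protein driven by Yap, rose by 2.67 ± 0.42. Myc, which drives growth and ribosome production, read 9.12, 8.73, 7.74, 8.39 and 9.00 at baseline and 11.07, 10.93, 10.61, 11.30 and 11.40 after APAP, a rise of 2.47 ± 0.24 against a fall of 1.37 ± 0.27 on the log2 scale in vehicle livers.

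Nucleolar genes that process ribosomal RNA rose almost as a whole. Of 30 ribosome biogenesis genes 28 were higher and 0 lower (93.3% of the list, median 0.96), while vehicle livers had 1 higher and 0 lower, and 27 were higher against vehicle. Centred on ribosomal protein genes 16 of the 30 were called and 0 were lower. Nop58, a core protein of box C/D small nucleolar particles, read 8.83, 8.82, 8.83, 8.81 and 8.79 at baseline and 11.07, 11.40, 11.48, 11.20 and 11.12 after APAP (2.44 ± 0.08), the baseline animals being nearly identical. Its partner Nop56 rose by 2.30 ± 0.09, the RNA polymerase I factor Taf1d by 2.09 ± 0.06 and the box H/ACA protein Gar1 by 1.79 ± 0.10. The nucleolar chaperone Npm1 rose by 1.20 ± 0.09 with vehicle at 0.13 ± 0.08. Polyamine genes accompanied them: 4 of 7 were higher and 0 lower, among them Sat1, the acetyltransferase that starts polyamine breakdown (2.92 ± 0.10), and the antizyme inhibitor Azin1 (2.10 ± 0.20).

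The E-box CACGTG, its own reverse complement and the letters that Myc with Max binds, occurred in 5.59% of all promoters and in 6 of the 28 matched ribosome biogenesis genes. All 6 were among the 26 matched members that were called higher. Shown, for the position of the E-box, are the GTPase Gnl3 (chr16:6219783-6219862, minus strand), the RNA helicase Ddx18 (chr13:35295973-35296052, minus strand), the processome protein Wdr75 (chr9:55395035-55395114, plus strand) and the small subunit export factor Ltv1 (chr1:9398576-9398655, minus strand).
Gnl3: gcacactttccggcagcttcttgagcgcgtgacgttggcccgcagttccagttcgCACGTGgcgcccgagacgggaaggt
Ddx18: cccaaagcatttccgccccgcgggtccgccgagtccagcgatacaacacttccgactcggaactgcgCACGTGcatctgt
Wdr75: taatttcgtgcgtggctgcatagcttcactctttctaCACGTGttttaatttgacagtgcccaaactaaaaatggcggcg
Ltv1: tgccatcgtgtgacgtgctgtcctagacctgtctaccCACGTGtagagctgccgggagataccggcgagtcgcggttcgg
These genes rose by 1.56 (Gnl3), 1.5 (Ddx18), 0.95 (Wdr75) and 0.87 (Ltv1). CACGTG is bound by other factors too.

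**Figure D2:**
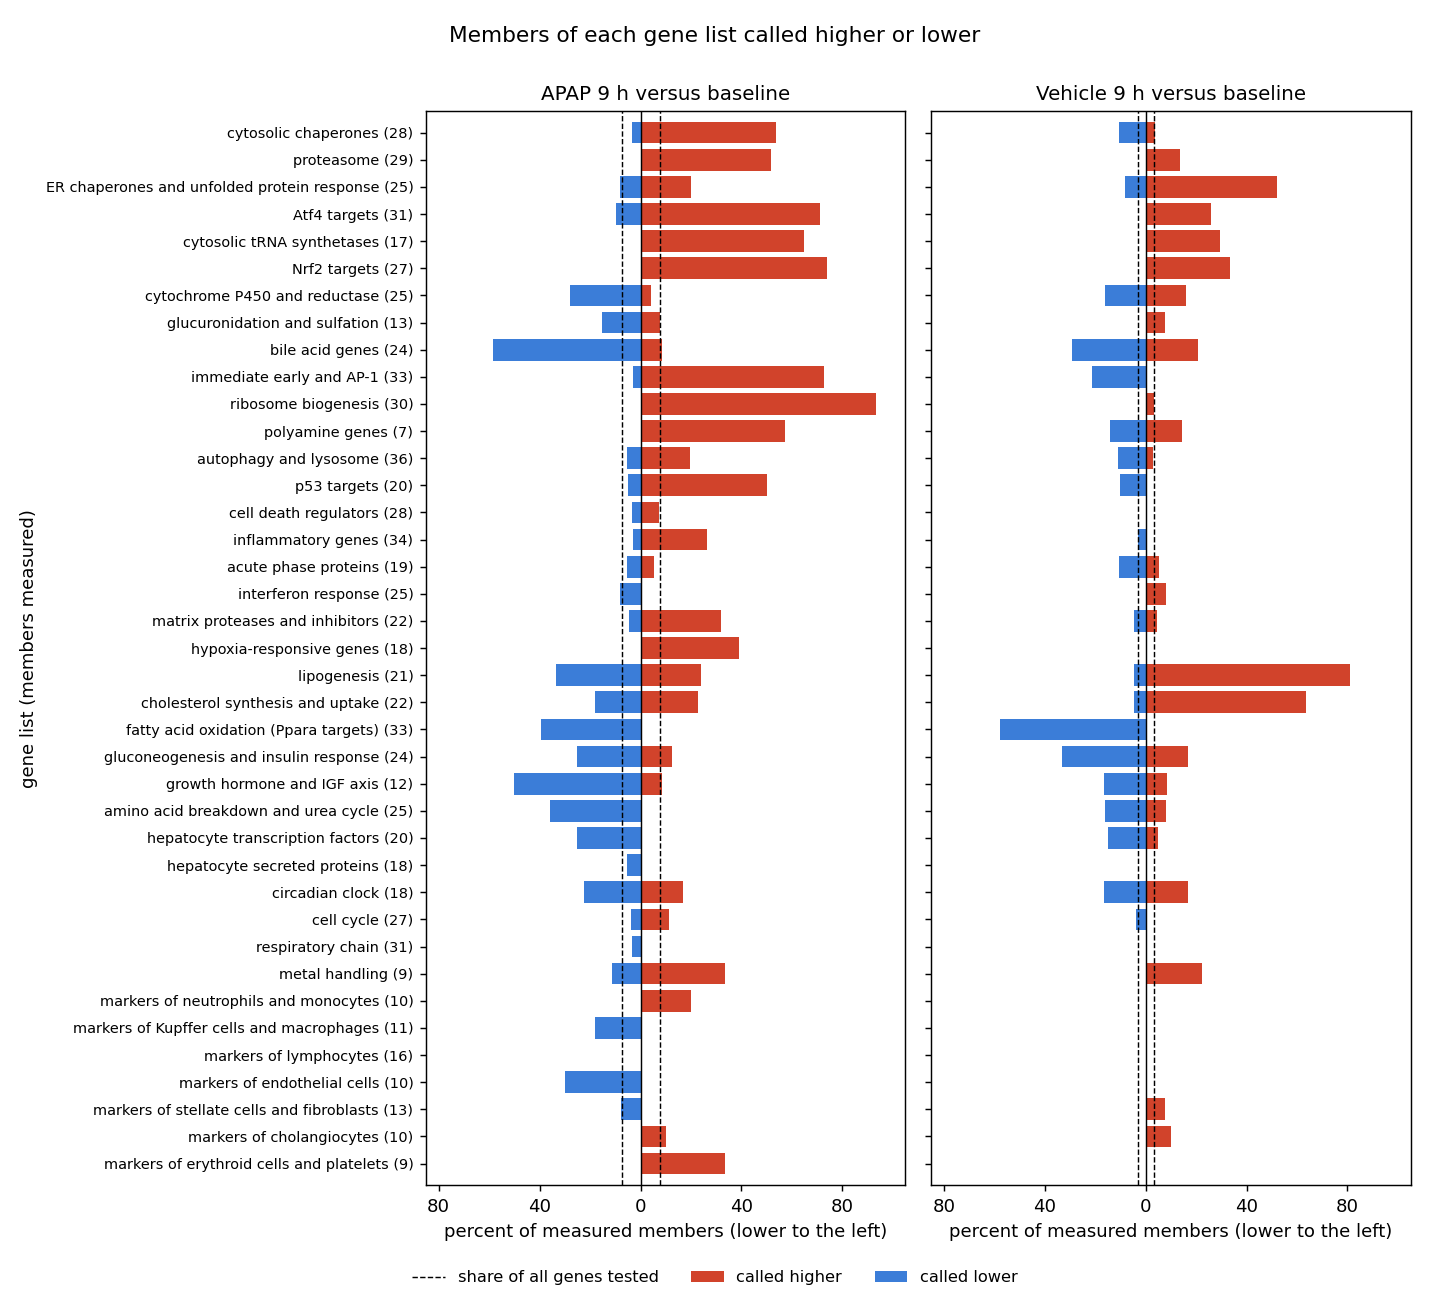
Percent of the measured genes of each list called higher (right of 0) or lower (left of 0) against baseline, for APAP at 9 h and for vehicle at 9 h, with calls at an adjusted p below 0.05 and at least 1.5-fold and dashed lines at the share of all genes tested called in each direction. Ribosome biogenesis reaches 28 of 30 higher for APAP and 1 of 30 for vehicle, and lipogenesis 5 higher and 7 lower for APAP against 17 higher and 1 lower for vehicle.

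Targets of p53 rose in part. Of 20 genes 10 were higher and 1 lower (median 0.63), and in vehicle livers 0 were higher and 2 lower. Cyclin G1 (Ccng1) rose by 2.63 ± 0.08, Mdm2, the ligase that degrades p53, by 1.58 ± 0.07, and the cell cycle inhibitor Cdkn1a (p21) by 0.87 ± 0.18. Gadd45a (3.30 ± 0.17), Sesn2 (2.32 ± 0.29) and Btg2 (2.27 ± 0.24) also rose, and these respond to other stresses as well. Sesn2 stood at 11.02 and 10.94 in APAP animals 2 and 3 and at 12.29 to 12.41 in the others. Of 28 regulators of cell death 2 were higher and 1 lower, shares (7.14% and 3.57%) no larger than those of all genes. The survival protein Mcl1 rose by 1.62 ± 0.13 and the pro-apoptotic Bmf was lower (-0.68 ± 0.07). The caspase Casp2 was also called higher, at 7.88 to 8.02 at baseline and 8.47 to 8.72 after APAP. Of 27 cell cycle genes 3 were higher (11.1%) and 1 lower (3.7%), against 7.89% and 7.15% of all genes. Pcna, the sliding clamp of replication and repair, rose by 1.69 ± 0.13, whereas the mitotic kinase Cdk1 was lower after both APAP (-0.86 ± 0.14) and vehicle (-0.75 ± 0.14).

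Of 34 genes of inflammatory signalling 9 were higher (26.5%, against 7.89% of all genes) and 1 lower (median 0.26, and -0.07 with ribosomal protein centring, where 6 were higher and 4 lower), and against vehicle 11 were higher and 0 lower. Tnfrsf12a (Fn14), the receptor of TWEAK, rose by 4.10 ± 0.14, the oncostatin M receptor Osmr by 1.90 ± 0.11, and the chemokines Ccl2 and Cxcl1 by 1.94 ± 0.23 and 1.56 ± 0.25. Ccl2 read 5.60, 5.56, 5.46, 5.63 and 5.67 at baseline and 7.67, 6.70, 7.19, 7.73 and 8.33 after APAP, all animals being above baseline and animal 2 the lowest. Il1b was not called (-0.31 ± 0.20, adjusted p = 0.246), though it was with ribosomal protein centring (-0.64). Of 19 acute phase proteins 1 was higher and 1 lower (5.26% each, below the shares of all genes). The one that rose, Hamp (hepcidin, the iron hormone), was 4.39 ± 0.21 above baseline after APAP and already 3.55 ± 0.21 above it after vehicle, with 0.84 ± 0.13 between them. Interferon response genes had 0 of 25 higher and 2 lower, among them the RNA sensor Ddx58 (RIG-I, -1.54 ± 0.15). That share (8.0%) was near the 7.15% of all genes called lower. Against vehicle 8 of the 25 were lower (32.0%, against 8.47% of all genes). Of these, the immunoproteasome subunit Psmb9 read 6.57 to 6.88 after APAP and 8.13 to 8.66 after vehicle (-1.74 ± 0.10), while it was not called against baseline (-0.56 ± 0.12). Without baseline animal 5, its group's lowest, or APAP animal 3, its group's highest, the call was made (-0.69 and -0.62).

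Of the matrix proteases, Mmp3 (stromelysin 1) read 4.40, 4.60, 4.37, 4.5 and 4.37 at baseline and 10.32, 10.60, 10.35, 10.08 and 9.67 after APAP (5.76 ± 0.14), with vehicle at 4.29 to 4.46. At baseline 4.23% of genes had a lower mean. Of 22 genes of this list 7 were higher and 1 lower, also the urokinase receptor Plaur (2.23 ± 0.18) and the inhibitor Timp1 (1.31 ± 0.18), though the list's median was 0.08 and fell to -0.25 with ribosomal protein centring. Mmp13 was uneven, at 7.81 in APAP animal 1 and 4.94 to 6.15 in the others against 3.89 to 4.05 at baseline. Of 18 genes that respond to low oxygen 7 were higher and 0 lower (median 0.28, or -0.05 with that centring and 4 calls), such as the glucose carrier Slc2a1 (1.28 ± 0.12) and adrenomedullin (Adm, 1.15 ± 0.18). The poliovirus receptor PVR, an adhesion protein and ligand of natural killer cell receptors, rose by 4.60 ± 0.09.

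Genes of drug metabolism were read next. Cyp2e1, the main enzyme that forms NAPQI, stood at 14.34 to 14.50 at baseline and 14.18 to 14.37 after APAP, and was not called (-0.16 ± 0.06, and 0.03 after cyclic loess normalization). Of 25 cytochrome P450 genes and their reductase 1 was higher and 7 lower (median -0.30). The 7 became 4 without APAP animal 3 or without baseline animal 4, 2 after cyclic loess and 16 with ribosomal protein centring. Cyp2c11, the male-specific form kept up by pulsatile growth hormone, read 13.07, 13.09, 12.73, 12.73 and 11.40 at baseline and 11.08, 10.19, 10.58, 12.20 and 11.34 after APAP. Baseline animal 5 and APAP animal 4 overlapped, and the difference was -1.53 ± 0.39 (adjusted p = 0.00648). The retinoid-related Cyp2c22 was the 1 member that rose (1.29 ± 0.12), and it rose more after vehicle (1.79 ± 0.10). Ugdh, which makes UDP-glucuronic acid for glucuronidation, rose by 1.49 ± 0.09, while Ugp2, which makes its precursor, was lower (-0.69 ± 0.07). Papss2, which makes the sulfate donor PAPS, was lower as well (-0.90 ± 0.08), and the phenol sulfotransferase Sult1a1 (-0.45 ± 0.07) did not reach 1.5-fold, except with ribosomal protein centring (-0.79). In all 13 conjugation genes 1 was higher and 2 lower (7.69% and 15.4%, against 7.89% and 7.15% of all genes). One transferase, Ugt2b17, could not be read as a group: baseline animals stood at 13.27, 12.71, 12.38, 12.75 and 9.27, vehicle animals at 13.45, 12.38, 7.64, 6.87 and 13.23 and APAP animals at 5.95, 10.71, 13.20, 6.53 and 11.99. High and low animals were found in each group (-2.40 ± 1.34, adjusted p = 0.178).

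**Figure D3:**
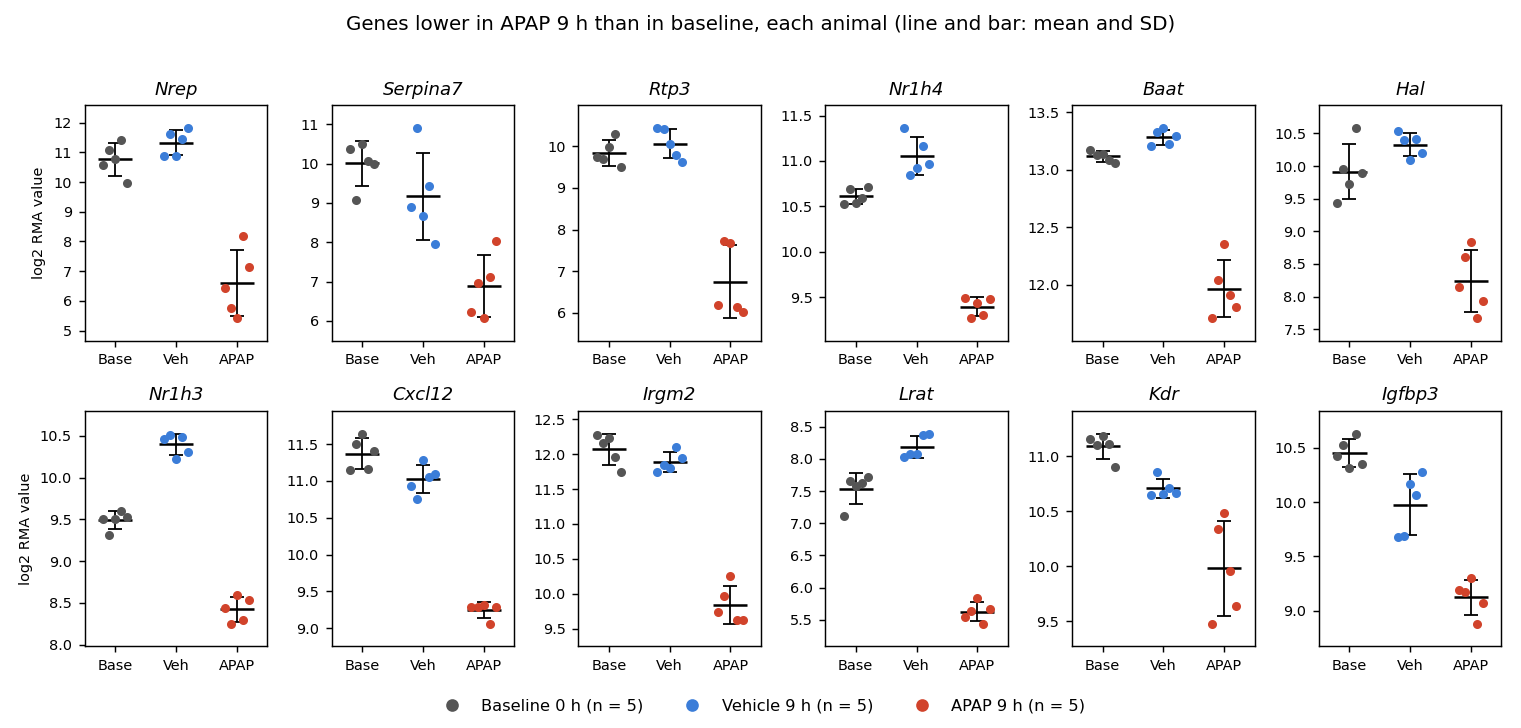
Log2 expression of 12 genes that were lower after APAP, in each animal of the baseline (0 h), vehicle (9 h) and APAP (9 h) groups (n = 5 each), points being animals, the horizontal line the group mean and the bar its SD. For Nrep the APAP animals read 5.42 to 8.19 against 9.97 to 11.40 at baseline, and for Cxcl12 they read 9.06 to 9.32 against 11.15 to 11.64.

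Bile acid genes were the list with the largest share of decreases from baseline. Of 24 genes 14 were lower (58.3%) and 2 higher, with a median of -0.70. Vehicle livers had 7 lower and 5 higher. Against vehicle 9 were lower and 3 higher after APAP, with a median of -0.06. The list means were 10.04 to 10.20 at baseline, 10.05 to 10.24 after vehicle and 9.49 to 9.74 after APAP. The bile acid receptor Nr1h4 (FXR) read 10.53, 10.69, 10.54, 10.59 and 10.71 at baseline and 9.49, 9.27, 9.44, 9.30 and 9.48 after APAP, with no overlap (-1.22 ± 0.06, adjusted p = 4.69e-08). Its target Nr0b2 (SHP) was lower after APAP (-1.13 ± 0.21) and higher after vehicle (1.12 ± 0.28). Baat, which joins bile acids to taurine or glycine, was lower by -1.15 ± 0.10 with vehicle at 0.16 ± 0.05. The uptake carriers Slc10a1 (NTCP, -0.76 ± 0.12) and Slco1a1 (-1.08 ± 0.09) and the bile salt export pump Abcb11 (-0.64 ± 0.08) were lower too. Cyp8b1, which sets how much cholic acid is made, and Amacr, a racemase of side chain shortening, were lower after APAP (-1.16 ± 0.17 and -1.32 ± 0.07) and after vehicle (-1.56 ± 0.15 and -0.99 ± 0.08). The 2 called higher were the exporters Abcc2 and Abcc4 described with the Nrf2 targets.

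Other hepatocyte functions were lower in part. Of 12 genes of the growth hormone and IGF axis 6 were lower and 1 higher (median -0.54): the receptor Ghr (-1.10 ± 0.13), Igf1 (-0.77 ± 0.12), its carriers Igfbp3 (-1.33 ± 0.09) and Igfals (-1.33 ± 0.30) and others were lower, and the receptor's kinase Jak2 rose by 1.13 ± 0.11. Of 25 genes of amino acid breakdown and the urea cycle 9 were lower and 0 higher (median -0.47), led by histidine ammonia-lyase Hal (-1.68 ± 0.24), whose APAP animals read 8.14, 8.60, 8.84, 7.67 and 7.93 against 9.43, 9.95, 9.72, 10.58 and 9.90. Of 20 hepatocyte transcription factors 5 were lower and 0 higher. The liver X receptor Nr1h3 read 9.31 to 9.60 at baseline and 8.25 to 8.59 after APAP (-1.07 ± 0.08), but 10.22 to 10.51 after vehicle (0.91 ± 0.07), so the 3 groups were separate. Foxa1, a pioneer factor, was lower by -1.30 ± 0.13 with vehicle at -0.19 ± 0.12. The xenobiotic receptors Nr1i3 (CAR) and Nr1i2 (PXR) were lower after APAP (-1.36 ± 0.14 and -1.02 ± 0.11) and after vehicle (-1.63 ± 0.15 and -1.31 ± 0.12). Hnf4a was not called (-0.09 ± 0.11, adjusted p = 0.541). Of 31 respiratory chain genes 1 was lower, the complex I subunit Ndufs1 (-0.77 ± 0.09). That share (3.23%) was smaller than the 7.15% of all genes called lower.

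Among called genes with a proper symbol and groups that did not overlap, the largest decrease in the deposited values was that of Nrep (P311). Nrep is a small intracellular protein that promotes translation of TGF-β. It read 10.56, 11.09, 10.77, 11.40 and 9.97 at baseline, 10.89, 11.61, 10.88, 11.46 and 11.81 after vehicle and 6.43, 5.76, 5.42, 8.19 and 7.13 after APAP. The difference was -4.17 ± 0.46, with the APAP animals widely spread and none near baseline. Serpina7 (thyroxine-binding globulin) was lower by -3.12 ± 0.36, but its vehicle animals were scattered between 7.95 and 10.90. Rtp3, a liver protein of the receptor transporter family, read 6.18, 7.72, 7.68, 6.15 and 6.01 after APAP against 9.51 to 10.30 at baseline (-3.09 ± 0.34), with APAP animals 2 and 3 this time the highest. Irgm2, an interferon-inducible GTPase, went from 11.74 to 12.27 to 9.62 to 10.25 (-2.23 ± 0.14) and stayed at 11.75 to 12.11 in vehicle livers. Pank1, which starts coenzyme A synthesis and is a Ppara target, was lower by -2.19 ± 0.23 with vehicle at -1.09 ± 0.07, and Hykk, hydroxylysine kinase, by -2.45 ± 0.24 with vehicle at -1.37 ± 0.15.

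Fat synthesis genes set the dosed groups apart. In vehicle livers 17 of 21 lipogenesis genes were higher than at the fasted baseline and 1 lower (median 1.31). After APAP 5 were higher and 7 lower (median -0.30), and against vehicle 1 was higher and 17 lower. Fatty acid synthase (Fasn) read 7.53, 6.95, 7.10, 7.07 and 6.95 at baseline, 12.83, 11.36, 12.44, 11.29 and 11.85 after vehicle and 8.66, 8.02, 8.32, 8.26 and 8.27 after APAP. Every APAP animal lay above baseline (1.18 ± 0.13) and every one far below vehicle (-3.65 ± 0.27, adjusted p = 4.85e-07). Srebf1 stood at 8.5 to 9.49, 11.44 to 12.31 and 8.59 to 9.24 in the same order, so APAP and baseline overlapped (-0.12 ± 0.18). Pnpla3, a lipase that Srebp-1c induces, read 4.94 to 5.09 at baseline, 7.29 to 10.36 after vehicle and 4.97 to 5.13 after APAP, so that the APAP and baseline animals overlapped at a low level. Mid1ip1, which assists acetyl-CoA carboxylase, was 3.56 ± 0.15 above baseline after vehicle and was not called after APAP (-0.37 ± 0.24, but -0.70 and called with ribosomal protein centring). Scd, the fatty acid desaturase, fell below the fasted level after APAP (-1.56 ± 0.27) and was 2.51 ± 0.33 above it after vehicle. Glycolytic Pklr did likewise (-0.72 ± 0.09 and 2.74 ± 0.24). Lpin1, a phosphatidate phosphatase that also serves as a coactivator in fasting, rose by 1.47 ± 0.24.

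Cholesterol synthesis did not move as one. Of 22 genes 5 were higher and 4 lower after APAP (median -0.01), while vehicle livers had 14 higher and 1 lower. Sqle, which forms the epoxide of squalene, read 8.84, 7.84, 8.12, 8.1 and 7.99 at baseline, 9.86, 9.37, 9.71, 9.05 and 9.72 after vehicle and 10.89, 9.99, 9.78, 10.85 and 10.87 after APAP. Both dosed groups lay above baseline, and APAP animal 3 lay within the vehicle range (APAP minus baseline 2.30 ± 0.25, APAP minus vehicle 0.93 ± 0.24). Idi1, an earlier step of the path, rose by 3.27 ± 0.42, with APAP animals at 9.38 to 11.85 against 7.01 to 8.36 at baseline. Every vehicle animal also lay above baseline for Idi1, the lowest at 9.41. APAP animal 3 (9.38) lay below every vehicle animal, so the dosed groups overlapped. Nsdhl, in the late part of the path, was lower after APAP (-0.80 ± 0.10) and higher after vehicle (0.81 ± 0.08). Cyp7a1, the rate-limiting enzyme of bile acid synthesis, read 7.73, 7.32, 7.13, 8.52 and 8.36 at baseline and 8.24, 7.5, 7.52, 7.61 and 7.81 after APAP, which overlapped (-0.08 ± 0.26), against 12.01, 9.89, 11.46, 11.58 and 12.03 after vehicle.

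**Figure D4:**
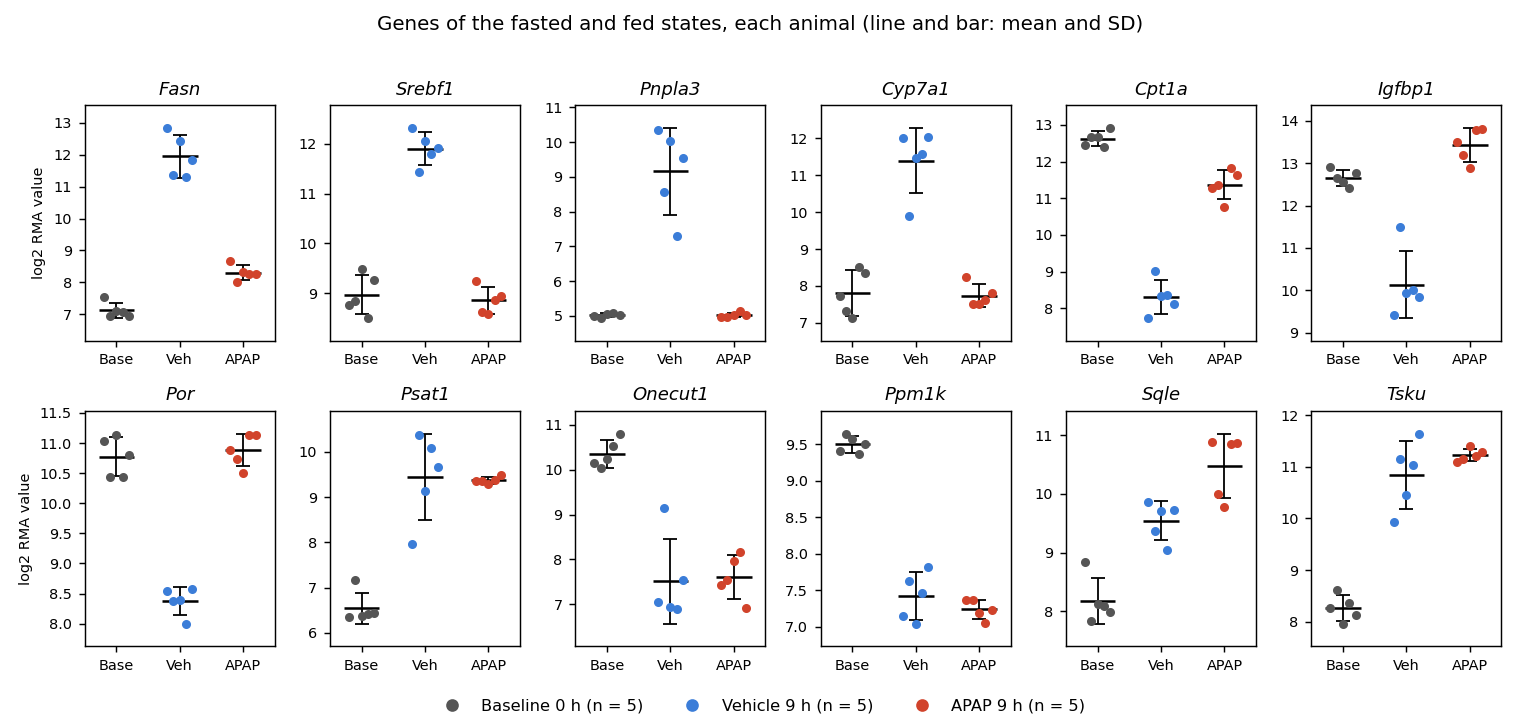
Log2 expression of 12 genes that differed between the fasted baseline (0 h) and the vehicle animals (9 h), with the APAP animals (9 h) beside them (n = 5 each), points being animals, the horizontal line the group mean and the bar its SD. The APAP animals lie with baseline for Pnpla3 (4.97 to 5.13) and with vehicle for Ppm1k (7.05 to 7.36 against 7.04 to 7.82).

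A part of the fatty acid oxidation genes was lower in each dosed group. Of 33 Ppara targets 13 were lower and 0 higher after APAP (median -0.51), and 19 were lower and 0 higher after vehicle (median -0.79). Cpt1a, which admits fatty acids to mitochondria, read 12.46, 12.67, 12.67, 12.40 and 12.91 at baseline, 7.73, 9.01, 8.33, 8.37 and 8.10 after vehicle and 11.27, 11.37, 10.76, 11.83 and 11.64 after APAP. It was below baseline in every APAP animal (-1.25 ± 0.17) and 3.07 ± 0.23 above vehicle. Ppara itself was lower after APAP (-1.51 ± 0.12) than after vehicle (-0.79 ± 0.12), a difference of -0.73 ± 0.12. The ketone body gene Bdh1 was lower (-1.39 ± 0.14). Acyl-CoA thioesterases parted ways after APAP: Acot3 (-2.24 ± 0.31) and Acot4 (-2.23 ± 0.24) were lower, but Acot2 was not called (-0.14 ± 0.17). In vehicle livers all of them were below baseline. Acot2 differed there by -2.20 ± 0.18. Vehicle animals read 5.76 to 6.4 for Acot3 (7.8 to 9.35 at baseline) and 8.31 to 9.09 for Acot4 (10.66 to 11.74 at baseline). The lipoprotein lipase inhibitor Angptl4 was lower in both (-1.89 ± 0.19 and -1.77 ± 0.18, with -0.12 ± 0.25 between them).

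Among genes of glucose production and insulin response, 3 of 24 were higher and 6 lower after APAP. G6pc, the last step of glucose release, was lower by -1.61 ± 0.22 after APAP and -1.35 ± 0.08 after vehicle, and Pck1 by -0.98 ± 0.18 and -1.44 ± 0.35. Igfbp1, an insulin-repressed secreted protein, read 12.91, 12.66, 12.55, 12.41 and 12.77 at baseline, 9.41, 11.49, 9.94, 10.01 and 9.83 after vehicle and 13.51, 13.19, 12.88, 13.78 and 13.80 after APAP. The APAP animals were called higher than baseline (0.78 ± 0.17) and than vehicle (3.30 ± 0.33). The call against baseline was lost with all 45 arrays in one fit, with ribosomal protein centring (0.44) and without APAP animals 1, 4 and 5 (0.38). The insulin receptor substrate Irs2 was not called after APAP (-0.37 ± 0.12, but -0.71 and called with ribosomal protein centring) and was lower after vehicle (-1.87 ± 0.12). Por, the electron donor of all microsomal P450 enzymes, stood at 10.51 to 11.14 after APAP and 10.44 to 11.14 at baseline against 8.00 to 8.57 after vehicle. The small GTPase Rab30 was not called after APAP either (-0.35 ± 0.27, but -0.68 and called with that centring) and was at 6.04 to 6.12 after vehicle (-3.74 ± 0.17).

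A further set was shared with vehicle. Onecut1 (HNF6), a liver transcription factor, read 10.15, 10.03, 10.23, 10.53 and 10.80 at baseline and 7.44, 7.55, 7.97, 8.17 and 6.92 after APAP (-2.74 ± 0.22), with vehicle at -2.84 ± 0.36 and a difference of 0.10 ± 0.40 between the dosed groups. Ppm1k, the phosphatase that activates branched-chain ketoacid dehydrogenase, was lower by -2.26 ± 0.08 and -2.08 ± 0.13, and the kinase Nim1k by -2.77 ± 0.16 and -2.45 ± 0.14. Tsku, a secreted leucine-rich protein, was higher by 2.97 ± 0.11 and 2.58 ± 0.26, and the circadian protein Noct (nocturnin) by 2.51 ± 0.47 and 2.11 ± 0.42. Of 18 clock genes 3 were higher and 4 lower after APAP and 3 higher and 3 lower after vehicle. Nr1d1 (REV-ERBα) was higher in both (1.20 ± 0.26 and 0.97 ± 0.14) and the output factor Dbp lower in both (-0.91 ± 0.12 and -0.60 ± 0.11), while Hlf was lower after APAP (-1.05 ± 0.08) with vehicle at 0.23 ± 0.12.

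Markers of other liver cells were read because fewer cells of a type and less RNA per cell cannot be told apart in whole tissue. Of 10 endothelial markers 3 were lower and 0 higher, with list means of 8.71 to 8.76 at baseline, 8.56 to 8.65 after vehicle and 8.20 to 8.45 after APAP. The VEGF receptor Kdr read 11.16, 11.10, 11.19, 11.11 and 10.90 at baseline and 9.48, 10.34, 10.49, 9.96 and 9.64 after APAP (-1.11 ± 0.17), and the angiopoietin receptor Tek was lower by -0.84 ± 0.09, while Vwf (-0.18, but -0.59 and called without APAP animals 1, 4 and 5) and Lyve1 (-0.08) were not called. Cxcl12, a chemokine that stromal and endothelial cells make, was lower by -2.13 ± 0.10 with vehicle at -0.35 ± 0.11. Of 13 markers of stellate cells and fibroblasts 1 was lower, the retinol esterase Lrat (-1.91 ± 0.11). That share (7.69%) was near the 7.15% of all genes called lower. The collagens Col1a1 (-0.41) and Col3a1 (-0.36) were not called, though they were with ribosomal protein centring (-0.74 and -0.69). Of 11 markers of Kupffer cells and macrophages 2 were lower, Adgre1 (F4/80, -1.14 ± 0.20) and the receptor Csf1r (-0.72 ± 0.12). For Csf1r the dosed groups overlapped, at 9.15 to 9.64 after vehicle and 9.05 to 9.38 after APAP. For Adgre1 they did not (5.94 to 6.78 and 5.04 to 5.66). The list means were 9.24 to 9.72 at baseline, 8.99 to 9.51 after vehicle and 9.11 to 9.5 after APAP. Of 16 lymphocyte markers 0 passed in either direction. Of 10 cholangiocyte markers 1 was higher, Epcam (1.29 ± 0.11, vehicle 0.62 ± 0.09).

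The 5 APAP animals fell into sets of 3 and 2 along the second component (8.86% of the variance), animals 2 and 3 at 18.6 and 17.7 and animals 1, 4 and 5 at -9.11, -10.4 and -14.8. Blood-borne transcripts moved with this split. Haemoglobin β (Hbb) read 13.21, 13.59, 13.62, 13.41 and 12.99 at baseline and 14.69, 13.49, 13.62, 14.48 and 14.73 after APAP. Alas2, the erythroid heme synthesis enzyme, read 12.03, 9.02, 9.04, 11.16 and 12.04 after APAP, and the platelet factor Pf4 9.67, 6.90, 7.92, 9.00 and 9.66. Animals 1, 4 and 5 were thus high in all 3 genes, and animals 2 and 3 lay within the baseline range for Hbb and Alas2, while for Pf4 animal 2 lay below it and animal 3 above it (7.13 to 7.64 at baseline). Relative to the baseline mean, the list of 9 erythroid and platelet markers stood at 1.13, -0.27, 0.06, 0.78 and 1.07 in animals 1 to 5, and 3 of its 9 genes were called higher (1 to 6 when 1 animal was left out). Alas2 was called in 2 and Pf4 in 3 of the 10 fits that left out 1 animal, with differences of 1.24 to 1.99 and 1.06 to 1.75 and adjusted p of up to 0.101 and 0.0828 in limma. S100a9, a neutrophil and monocyte protein, read 8.47, 4.94, 5.30, 6.56 and 7.24 after APAP against 4.77 to 5.13 at baseline. It was called in 4 of those 10 fits (1.13 to 2.01). Of 10 neutrophil and monocyte markers 2 were higher and 0 lower (0 to 2 higher when 1 animal was left out). Besides S100a9 the called member was S100a8. It read 6.38, 4.45, 4.24, 4.82 and 5.69 after APAP against 3.93 to 4.16 at baseline. The neutrophil receptors Cxcr2 (0.15) and Csf3r (0.16) were not called.

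Some of the stress lists differed between the same animals. In animals 1 to 5 the mean of the Atf4 targets stood 1.83, 1.42, 1.32, 1.87 and 1.79 above the baseline mean, that of the immediate early genes 1.75, 1.19, 1.13, 1.73 and 1.84, and that of the inflammatory genes 0.59, 0.24, 0.37, 0.64 and 0.60. Animals 2 and 3 were thus the lowest for these 3 lists. They were the highest for ribosome biogenesis, at 1.00, 1.33, 1.19, 1.10 and 1.03, and for the Nrf2 targets, at 1.71 and 1.78 with the other 3 animals lower. Chaperones did not divide the animals in this way, at 1.30, 1.25, 1.33, 1.21 and 1.22. With animals 1, 4 and 5 left out, a setting chosen after seeing the data that leaves 2 APAP arrays, 1210 genes were higher and 962 lower. The lists then held 15 chaperones, 20 Atf4 targets, 22 Nrf2 targets, 16 immediate early genes and 30 ribosome biogenesis genes called higher, and 0 erythroid or platelet and 0 neutrophil markers. The part of blood content in the differences between APAP animals was not tested.

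**Figure D5:**
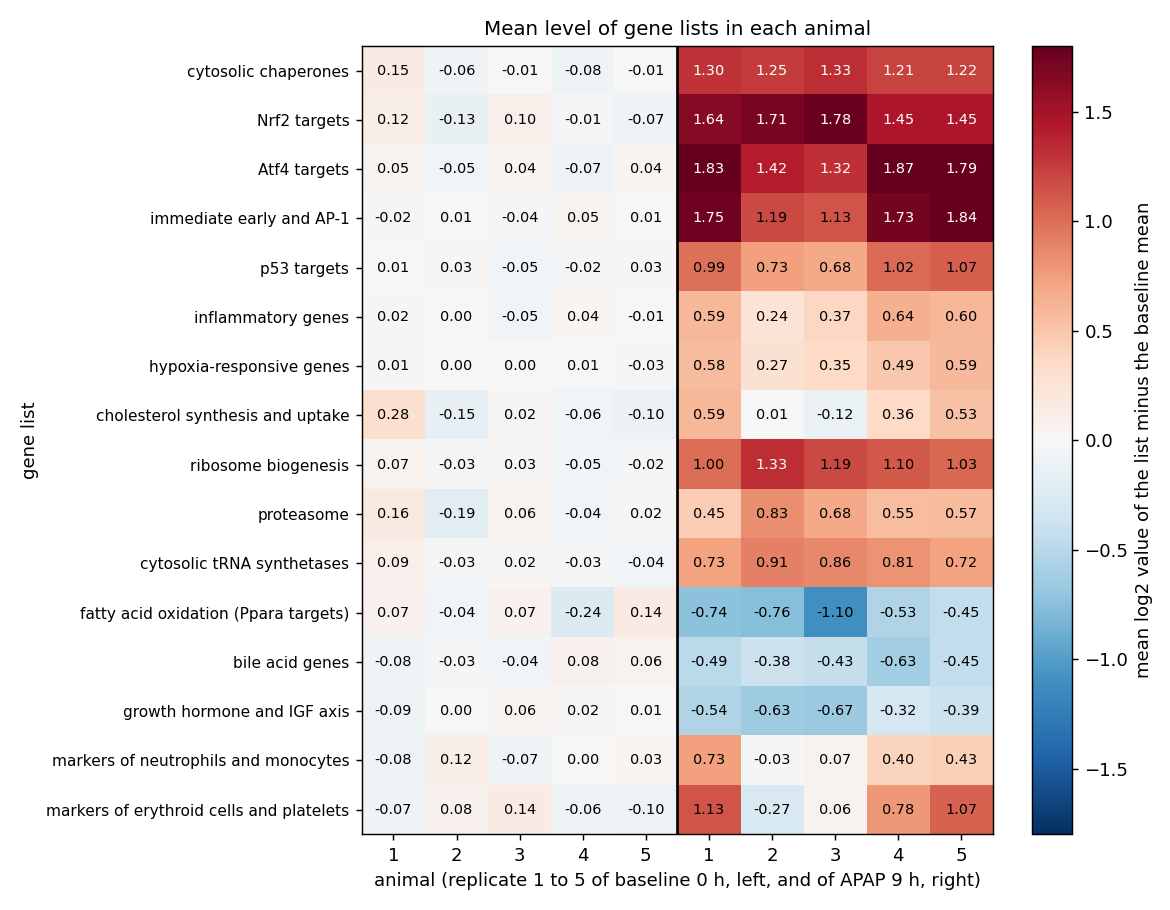
Mean log2 expression of a selection of the 39 gene lists in each of the 10 animals, minus the mean of the 5 baseline animals, with colour running from lower (blue) to higher (red). APAP animals 2 and 3 differ from animals 1, 4 and 5 for the erythroid and platelet markers (-0.27 and 0.06 against 0.78 to 1.13) and for the immediate early genes (1.19 and 1.13 against 1.73 to 1.84).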

How the data were processed

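Total RNA from rat liver (5 µg per animal) had been hybridised to Affymetrix rat genome arrays, 1 array per animal, so the replicates are separate animals. The authors made the deposited log2 values by RMA (background correction, quantile normalization and summarisation) with affy 1.64.0 in R 3.6.1 and the BrainArray probe annotation version 19, which pools all probes of a gene into 1 probe set. Their own analysis used limma 3.42.2. RMA forces the arrays to the same distribution, so a shift of total RNA cannot be seen, and low genes are compressed near the floor. The number of arrays limits the precision, as arrays give no depth. Probe sets were named by the deposited symbol column, 12948 of the 13877 having a proper symbol. The authors also deposited a rat-mouse table whose 45 value columns were not used.

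The 10 arrays of each comparison were fitted with lmFit and eBayes in limma 3.58.1 (R 4.3.3), with Benjamini-Hochberg adjustment over all 13877 genes. Calls needed an adjusted p below 0.05 and 1.5-fold. Tested on simulated data for APAP against baseline over 13877 genes, the fit recovered 41 of 50 genes changed 1.6-fold, 49 of 50 at 2-fold and 50 of 50 at 3-fold and at 5-fold, with 0 false calls. The same simulation gave 2 false calls for vehicle against baseline and 1 for APAP against vehicle. Its values were independent and normally distributed, and far fewer genes were changed than were called in the data. Alternatives were cyclic loess, array weights, robust and trended moderation, all 45 arrays in one fit, centring on ribosomal protein genes, other thresholds, leaving out the 25% dimmest genes, a replicate block and leaving out each animal. The 39 gene lists and the members were chosen with earlier results of these data known. Genes were named by rule from those with a proper symbol. The rule took the 12 largest increases and decreases among called genes with groups that did not overlap. It also took up to 5 called genes per list by size (or the 2 lowest p). Genes shared with vehicle or near baseline against vehicle (6 each way) and a panel of 30 completed the rule. Other list members were named for their role, after their values were known. Some genes that the rule names are not reported here. No test of a list was made. Promoter sequences are RefSeq's for GRCr8.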

Additional observations from a re-analysis of the deposited data

Results flagged for a closer look

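Single animals stood apart from the other 4 of their group, by Dixon's criterion for 5 values, for 17 of the genes named above. Chance alone marks about 1 in 20 groups, and 178 genes were looked at in 2 groups each. Log2 expression values are given, and the cause was not tested in any of them.

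In the APAP group the lowest animal stood apart for Cxcl12 (9.06, the next at 9.28), Txnrd1 (12.23 against 12.53), Gdf15 (5.49 against 7.42) and Slc10a1 (11.73 against 12.25), and the highest for Xbp1 (12.31 against 11.89). Gdf15 in animal 3 was the widest of these gaps, and that animal was still above every baseline animal.

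At baseline the highest animal stood apart for Psmb3 (11.92), Slc7a11 (5.50), Fasn (7.53), Sqle (8.84), Psat1 (7.16) and Abcb11 (12.09). The lowest stood apart for Cyp2c11 (11.40), Ugp2 (11.40), G6pc (13.79), Lrat (7.11), Psmb9 (6.75) and Ugt2b17 (9.27). Animal 1 held the high values of Psmb3, Fasn and Sqle and the low one of Lrat. Animal 5 held the low values of Cyp2c11, Psmb9 and Ugt2b17.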

How the results depend on the processing

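Against baseline, the counts of genes higher and lower after APAP were 453 and 302 at a 2-fold threshold and 2723 and 3263 with none, and for vehicle 150 and 126, and 2054 and 1862. Against vehicle, APAP gave 466 and 423 at 2-fold and 2905 and 3519 with no fold threshold. Centring on ribosomal protein genes gave 527 higher and 2800 lower for APAP and 208 and 1199 for vehicle against baseline. Leaving out 1 animal gave 1067 to 1126 higher and 955 to 1032 lower for APAP against baseline. Replicate numbers did not pair the samples (correlations of same-numbered deviations from -0.23 to 0.05), and a replicate block gave 1097 and 994. The other alternatives, centring for APAP against vehicle included, kept all 6 counts within 1.5 times.

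Differences from baseline that changed sign were of genes not called, except Alas2 (-0.043 without APAP animals 1, 4 and 5). That setting, chosen after seeing the data, also gave -0.14 for Por, 0.20 for Mid1ip1 and 0.12 for Hnf4a, took Igfbp1 (0.38), Hbb (0.20), Pf4 (0.0972), S100a9 (0.24) and Ugp2 (-0.56) off the calls and added Vwf (-0.59). Ribosomal protein centring gave -0.22 for Por, -0.30 for Alb, -0.22 for Creld2, -0.19 for Cxcr2 and -0.17 for Csf3r, and Hsf1 (0.57), Hsp90ab1 (0.42), Cdkn1a (0.54), Igfbp1 (0.44), Ltv1 (0.54), Alas2 (1.25), Pf4 (0.98) and Hbb (0.51) then missed the threshold, while Rab30 (-0.68), Irs2 (-0.71), Mid1ip1 (-0.70), Sult1a1 (-0.79), Il1b (-0.64), Col1a1 (-0.74), Col3a1 (-0.69) and Psmb9 (-0.90) were called lower. Under the same centring the genes called higher numbered 16 for ribosome biogenesis, 7 for tRNA synthetases, 2 for the proteasome and 2 for autophagy, and those called lower 25 for fatty acid oxidation, 18 for amino acid breakdown, 16 for cytochrome P450, 12 for gluconeogenesis, 11 each for lipogenesis and hepatocyte transcription factors, 10 for autophagy and 9 each for cholesterol synthesis and the interferon response. Cyclic loess gave 0.0201 for Pnpla3, 0.0316 for Cyp2e1 and 0.0033 for Lyve1, and took Trap1 (-0.52), Xbp1 (-0.50), Ugp2 (-0.58) and Abcb11 (-0.53) below 1.5-fold. Igfbp1 was not called with all 45 arrays in one fit. Robust moderation took S100a9, Alas2 and Pf4 off the calls, and the replicate block took Alas2 off. Array weights gave 0.0454 for Cyp7a1 and called Psmb9 lower (-0.61). Leaving out 1 animal gave -0.0262 to 0.016 for Pnpla3, -0.25 to 0.099 for Cyp7a1 and -0.241 to 0.0087 for Srebf1. The cause was not tested.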
